A study of Homo sapiens with 8 samples.

Results

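The 10 genes described here encode enzymes of conjugation, 7 UDP-glucuronosyltransferases (UGT1A1, UGT1A6, UGT2B4, UGT2B7, UGT2B10, UGT2B11 and UGT2B15) and 3 cytosolic sulfotransferases (SULT1A1, SULT1E1 and SULT2A1). They were chosen by name, with earlier results of these data known, and each of the 10 matched 1 row among the 58206 genes of the count table. RNA was sequenced from 8 libraries of Alexander1, an established hepatocellular carcinoma line whose own Axin1 lacks the stretch that binds the kinase GSK3, so that Wnt signalling is constitutively active according to the series' text. Of these, 4 libraries carry the genotype label wt (Axin1 -) and are called parental, and 4 carry the label Axin1 + (Addgene plasmid #24928) and are called restored-labelled. Full-length Axin1 was introduced with a retrovirus and clones were selected with hygromycin B. The labels list that treatment for all 8 samples and do not say how many clones were used or whether libraries of 1 label came from separate cultures, so p-values measure the spread between these libraries, which may be technical.

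UDP-glucuronosyltransferases sit in the membrane of the endoplasmic reticulum and transfer glucuronic acid from UDP-glucuronate to bilirubin, bile acids, steroids and drugs. Cytosolic sulfotransferases transfer sulfonate from the donor PAPS to phenols, steroids and bile acids. Liver is a main site of both reactions, which generally make compounds more water-soluble so that transporters can export them into bile or blood. The genes of the UGT1A locus have separate first exons and share the exons that follow, whereas each UGT2B gene is complete in itself and resembles its neighbours.

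The expression level of AXIN1 itself was between 47.4 and 55.3 CPM (counts scaled to library totals that were adjusted by the TMM method) in the parental libraries and between 37.7 and 48.2 CPM in the restored-labelled ones. Its log2 fold change was -0.21 (± 0.12 SE, adjusted p = 0.267 by edgeR), so AXIN1 mRNA was not higher under the restored label and every direction below rests on the labels. Library totals ran from 11232951 to 26400782 counts, and 3 counts corresponded to between 0.108 and 0.267 CPM. Replicate 1 of each label stood apart from its group for the hepatocyte gene ALB, chosen after its values were seen, with 46.7 CPM against 159 to 208 CPM in the other parental libraries and 13.8 CPM against 445 to 681 CPM in the other restored-labelled ones. The 4 lists of other cell types (fibroblast, endothelial, leukocyte, intestinal epithelium) had 6 genes each. The endothelial list summed to between 4.58 and 6.95 CPM in parental and between 34.1 and 58.6 CPM in restored-labelled libraries, nearly all of it PECAM1, with TEK at 0 counts and VWF, CDH5, KDR and CLDN5 at 6 counts or fewer in each library. The fibroblast sums were 2.71 to 3.22 CPM and 1.23 to 4.59 CPM, with COL1A2 at 1 count in all. They were held mostly by COL1A1 and PDGFRB, which went in opposite directions. Mean levels in parental and restored-labelled libraries were 1.11 and 1.87 CPM for COL1A1 and 1.69 and 0.221 CPM for PDGFRB. The leukocyte sums were 422 to 949 CPM and 672 to 920 CPM, held by LYZ, with CD3E at 0 counts. The intestinal sums were 170 to 252 CPM and 273 to 364 CPM, held by VIL1, CDH17 and CDX2, with CDX1, FABP2 and SI at 0 counts. The part of these markers in the results below was not tested.

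Promoter sequence is shown for 4 of the genes because it bears on how alike they are. The windows are the 250 bases before the RefSeq start in GRCh38.p14, 5′ to 3′ on the strand of the gene. For UGT1A1 (chr2:233760020-233760269, plus strand) and SULT1E1 (chr4:69860146-69860395, minus strand), capitals mark letter matches to TATAAA on either strand. In UGT1A1 the match is on the opposite strand, 92 bases before the start, and is not a known TATA box of that gene.
UGT1A1: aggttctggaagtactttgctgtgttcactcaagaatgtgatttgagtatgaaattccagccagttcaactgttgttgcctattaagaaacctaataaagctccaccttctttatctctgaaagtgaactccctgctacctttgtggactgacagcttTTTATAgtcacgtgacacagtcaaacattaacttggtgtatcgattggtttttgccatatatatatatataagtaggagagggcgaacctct
SULT1E1: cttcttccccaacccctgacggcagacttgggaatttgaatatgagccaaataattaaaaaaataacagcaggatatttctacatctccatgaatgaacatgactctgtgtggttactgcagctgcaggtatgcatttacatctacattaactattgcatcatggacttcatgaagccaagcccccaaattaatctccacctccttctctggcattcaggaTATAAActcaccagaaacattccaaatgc

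The next pair is shown because UGT2B10 and UGT2B11 have nearly the same upstream sequence and, in the restored-labelled libraries, quite different values below. Capitals mark bases that differ between them or have no partner in a global alignment (UGT2B10 chr4:68815744-68815993, plus strand; UGT2B11 chr4:69214749-69214998, minus strand).
UGT2B10: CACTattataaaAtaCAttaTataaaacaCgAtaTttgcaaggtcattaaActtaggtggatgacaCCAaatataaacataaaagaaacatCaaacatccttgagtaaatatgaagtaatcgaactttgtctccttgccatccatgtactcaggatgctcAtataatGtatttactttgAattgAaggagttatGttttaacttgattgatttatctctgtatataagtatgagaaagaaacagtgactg
UGT2B11: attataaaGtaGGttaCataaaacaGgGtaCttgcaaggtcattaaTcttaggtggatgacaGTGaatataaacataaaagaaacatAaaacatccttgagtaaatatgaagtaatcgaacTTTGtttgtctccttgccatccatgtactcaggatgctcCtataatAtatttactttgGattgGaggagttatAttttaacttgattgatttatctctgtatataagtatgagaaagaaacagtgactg

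Of the 250 bases, 229 were identical between UGT2B10 and UGT2B11 (91.6%), with 17 mismatches and 8 gap positions. UGT2B11 shared 185 bases with UGT2B15 and 170 with UGT2B7, against 134 to 137 with UGT1A1, SULT1E1 and SULT2A1. RefSeq windows were found for 8 of the 10 genes, UGT1A6 having 2. Over the full windows, which run to 50 bases after the start, TATAAA was found in 4 of the 9 member windows (UGT1A1, SULT1E1, UGT2B10 and UGT2B11) and in 11.5% of 35116 windows in all. The match lay 29 bases before the start in SULT1E1, and matches lay 179 to 248 bases before it in UGT2B10 and UGT2B11. The windows of UGT2B10 and UGT2B11 are nearly alike, so their motif matches are not independent. The nuclear receptor motif AGGTCA was found in UGT2B10, UGT2B11 and UGT2B15 and in 13.8% of all windows. The xenobiotic response element core GCGTG was found in 2 of 9 and in 36.5% of all, the TCF/LEF core CTTTGAT in 1 of 9 (UGT1A6) and in 2.62% of all, and the HNF4 core CAAAGTCCA in 0 of 9 and in 0.384% of all. These are letter matches on both strands and say nothing about binding.

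All 8 members that passed the expression filter had a positive log2 fold change (restored-labelled over parental), and 4 of them rose past the threshold: UGT1A1, UGT1A6, UGT2B11 and SULT1A1. In RNA from bulk cultures, a change in the share of cells that express a gene and a change in RNA per cell cannot be told apart. The threshold was an adjusted p under 0.05 in edgeR's quasi-likelihood test, with Benjamini-Hochberg adjustment over all 14289 genes tested. Of all genes tested, 10.4% were called higher, 8.77% lower and 19.2% in either direction. UGT2B4, UGT2B7, UGT2B10 and SULT1E1 did not pass it, and UGT2B15 and SULT2A1 were under the filter and were not tested. SULT1E1 reached the filter's level in 2 parental and 4 restored-labelled libraries, and UGT1A6 and UGT2B10 in 3 and 4, so these 3 passed more through the restored-labelled libraries, and the counts over the 8 are a description only. The 4 values of each label did not overlap for 5 of the 8 tested members, all higher in the restored-labelled libraries, against 12.7% of all genes tested, while 11.2% did not overlap in the other direction. The 4 called members each had a log2 fold change of at least 1, as did 4.38% of all genes tested when also called higher. The median log2 fold change of the 8 was 1.69, against 0.0026 over all genes tested. Without parental replicate 1 and restored replicate 1, the libraries with low ALB, 8 of the 9 members then tested were called, all higher, against 16.6% of 14332 genes called higher in that analysis. The 8 include UGT2B15, which passed the filter through the restored-labelled libraries. That choice was made after seeing the data.

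**Figure D1:**
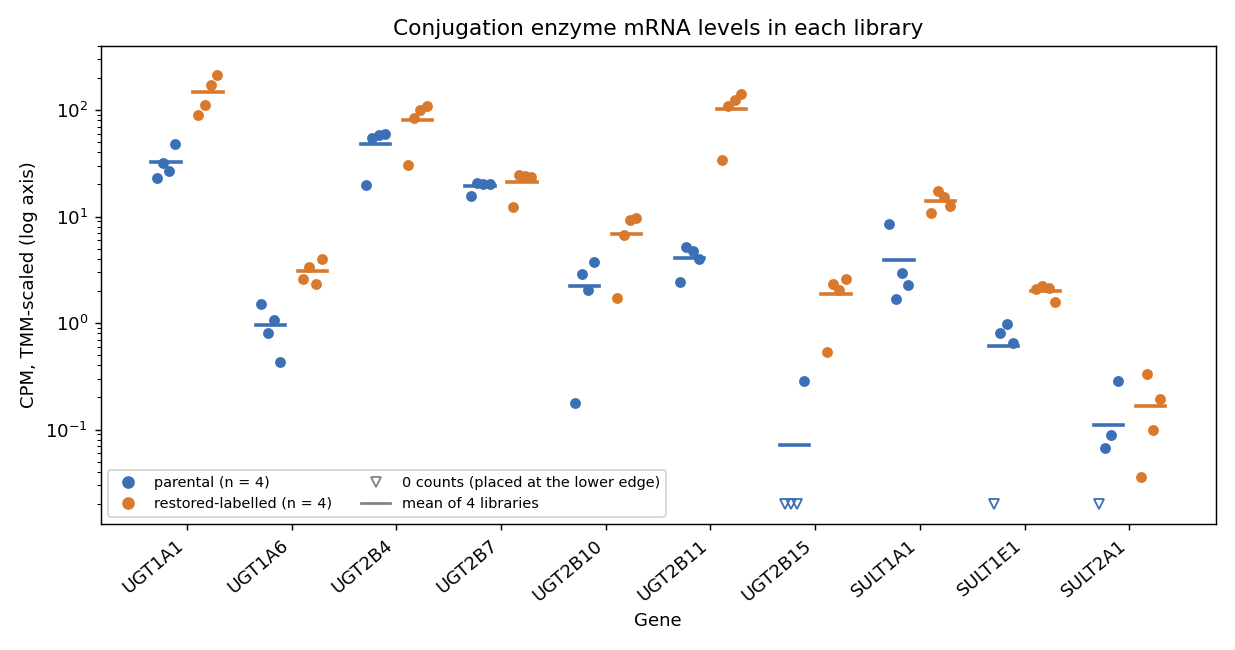
Expression level of each of the 10 genes in CPM (log axis) in the 4 parental and 4 restored-labelled libraries, with points for libraries, bars for group means and open triangles for libraries with 0 counts. UGT2B11 lies between 2.40 and 5.15 CPM in the parental and between 34.0 and 140 CPM in the restored-labelled libraries, while the values of UGT2B7 overlap.

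UGT1A1 encodes the enzyme that conjugates bilirubin. The gene (ENSG00000241635) lies on the plus strand of chromosome 2, from 233760248 to 233773299 in GRCh38. In replicate order, UGT1A1 stood at 22.9, 31.5, 26.6 and 48.1 CPM under the parental label and at 90.6, 112, 173 and 213 CPM under the restored label. The highest parental value was thus well under the lowest restored-labelled one, and replicate 1 was the lowest library of each label. UGT1A1 rose from a mean of 32.3 ± 11.1 CPM to 147 ± 55.9 CPM (SD, n = 4 each), with a log2 fold change of 2.19 (SE 0.30, 95% confidence interval 1.53 to 2.84, adjusted p = 0.000912 by edgeR). It passed the threshold in every one of the 19 alternative analyses, with log2 fold changes between 1.96 and 2.44.

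UGT1A6, which conjugates small planar phenols, starts upstream of UGT1A1 on the same strand (ENSG00000167165, chromosome 2, 233691607 to 233773300). Its level was 1.51, 0.812, 1.07 and 0.429 CPM in the parental and 2.62, 3.38, 2.32 and 3.98 CPM in the restored-labelled libraries. The values did not overlap, although each rested on between 6 and 102 counts. UGT1A6 rose by 1.70 on the log2 scale (± 0.37 SE, adjusted p = 0.0113 by edgeR). Among the 7 other UGT1A genes, UGT1A4 and UGT1A10 could be tested. UGT1A4 rose from a mean of 0.765 to 1.96 CPM, which is a log2 fold change of 1.35 (± 0.38 SE, adjusted p = 0.0315 by edgeR), and the call was lost without parental replicate 2 or 3 or restored replicate 3 or 4 (adjusted p from 0.0706 to 0.112). UGT1A10 rose from 0.489 to 1.14 CPM, by 1.18 (± 0.38 SE, adjusted p = 0.0494 by edgeR), and kept its call when a library was left out only without parental replicate 2. It was under the filter's level in most parental libraries and passed through the restored-labelled ones, so its call is a description only.

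The UGT1A rows cannot be read as independent genes. In the annotation 49.9% of the exonic bases of UGT1A1 and 64.4% of those of UGT1A6 also belong to exons of another gene, mostly of the same locus. Likewise 49.4% of the 50-base stretches of UGT1A1 transcripts occur in transcripts of another gene. How reads from such stretches were assigned is not given in the sources used here. The sum over the UGT1A rows was between 26.1 and 50.5 CPM in the parental and between 96.4 and 223 CPM in the restored-labelled libraries, a ratio of means of 4.40. UGT1A1 held between 87.7% and 95.2% of these counts in the parental and between 94.0% and 96.8% in the restored-labelled libraries. UGT1A6 held between 0.850% and 5.80% and between 1.29% and 2.85%.

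UGT2B11 showed the largest log2 fold change of the tested members. The gene, whose enzyme is known to act on fatty acid derivatives, lies on the minus strand of chromosome 4 (ENSG00000213759, 69199951 to 69214731). Its level was 2.40, 5.15, 4.72 and 4.01 CPM in the parental and 34.0, 108, 123 and 140 CPM in the restored-labelled libraries. Restored replicate 1 was the lowest of its label and still above every parental library. UGT2B11 rose from a mean of 4.07 ± 1.21 CPM to 101 ± 46.7 CPM (SD, n = 4 each), with a log2 fold change of 4.63 (SE 0.43, 95% confidence interval 3.68 to 5.57, adjusted p = 8.43e-05 by edgeR). The call held in all 19 alternative analyses, with values from 4.43 to 4.91. An antisense gene, AC111000.4, covers 418 of its exonic bases. That gene stood between 0.891 and 1.36 CPM over the 8 libraries (log2 fold change 0.24, adjusted p = 0.576 by edgeR).

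UGT2B4 and UGT2B7, which conjugate bile acids, steroids and many drugs, were the highest UGT2B genes of the parental libraries. UGT2B4 (ENSG00000156096, chromosome 4, 69480165 to 69526014) stood at 19.9, 55.1, 57.8 and 60.0 CPM in the parental and 30.6, 83.4, 101 and 110 CPM in the restored-labelled libraries. Replicate 1 was far below the rest under both labels, and the groups overlapped through restored replicate 1. Its log2 fold change was 0.75 (SE 0.40, interval -0.12 to 1.62 at 95% confidence, adjusted p = 0.208 by edgeR), and 1.02 without restored replicate 1 (adjusted p = 0.0398). Without parental replicate 1 it was smaller, at 0.495 (adjusted p = 0.295 by edgeR). UGT2B7 (ENSG00000171234, chromosome 4, 69051363 to 69112987) stood at 15.8, 20.4, 20.4 and 20.3 CPM and at 12.4, 24.6, 24.0 and 23.7 CPM. Here too replicate 1 was the lowest of each label, and the other libraries lay close together. The log2 fold change of UGT2B7 was 0.14 (± 0.22 SE, adjusted p = 0.694 by edgeR), with a 95% confidence interval of -0.34 to 0.61.

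UGT2B10, whose enzyme glucuronidates nicotine and other amines, had 0.178, 2.91, 2.05 and 3.72 CPM in the parental and 1.72, 6.69, 9.26 and 9.68 CPM in the restored-labelled libraries (ENSG00000109181, chromosome 4, 68815993 to 68831196). The groups overlapped through restored replicate 1, and parental replicate 1, with 2 counts, was the lowest library. Its log2 fold change was 1.60 (± 0.64 SE, adjusted p = 0.105 by edgeR), and 1.92 without restored replicate 1 (adjusted p = 0.0291). Without parental replicate 1 it was smaller, at 1.22 (adjusted p = 0.0905 by edgeR). UGT2B15, an androgen-conjugating enzyme, had 0, 0, 0 and 4 counts in the parental and 15, 28, 41 and 66 counts in the restored-labelled libraries (ENSG00000196620, chromosome 4, 68646630 to 68670628). In CPM this was at most 0.286 in the parental and 0.538, 2.31, 2.02 and 2.58 in the restored-labelled libraries, with no overlap. The pooled ratio, restored-labelled to parental, was 22.4, with a 95% interval of 8.55 to 83.1 that covers counting error only. UGT2B15 reached the filter's level in 0 parental and 3 restored-labelled libraries, and parental replicate 4 held all of its 4 parental counts, so these values are given as a description with no test.

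The UGT2B rows together summed to between 38.5 and 90.0 CPM in the parental and between 80.6 and 293 CPM in the restored-labelled libraries. UGT2B11 held between 4.46% and 6.24% of the counts of the UGT2B rows in the parental libraries and between 42.2% and 47.8% in the restored-labelled ones, a difference of 40.3 percentage points. These ranges did not overlap. The share of UGT2B4 went from between 51.7% and 67.1% to between 36.3% and 38.2%, and that of UGT2B7 from between 22.5% and 40.9% to between 8.09% and 15.4%. UGT2B10 held between 0.462% and 4.14% and between 2.14% and 3.50%. Replicate 1 of the restored label, which had the lowest UGT2B level of its group, had a UGT2B11 share of 42.2%, near the others. Of the 50-base stretches of UGT2B11 transcripts, 36.4% occur in another gene, with 19.9% in the pseudogene UGT2B25P, 16.1% in UGT2B28, 8.69% in UGT2B10 and under 1% each in UGT2B4 and UGT2B7. UGT2B15 shares 27.5% of its stretches with UGT2B17, which had at most 9 counts in any library.

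**Figure D2:**
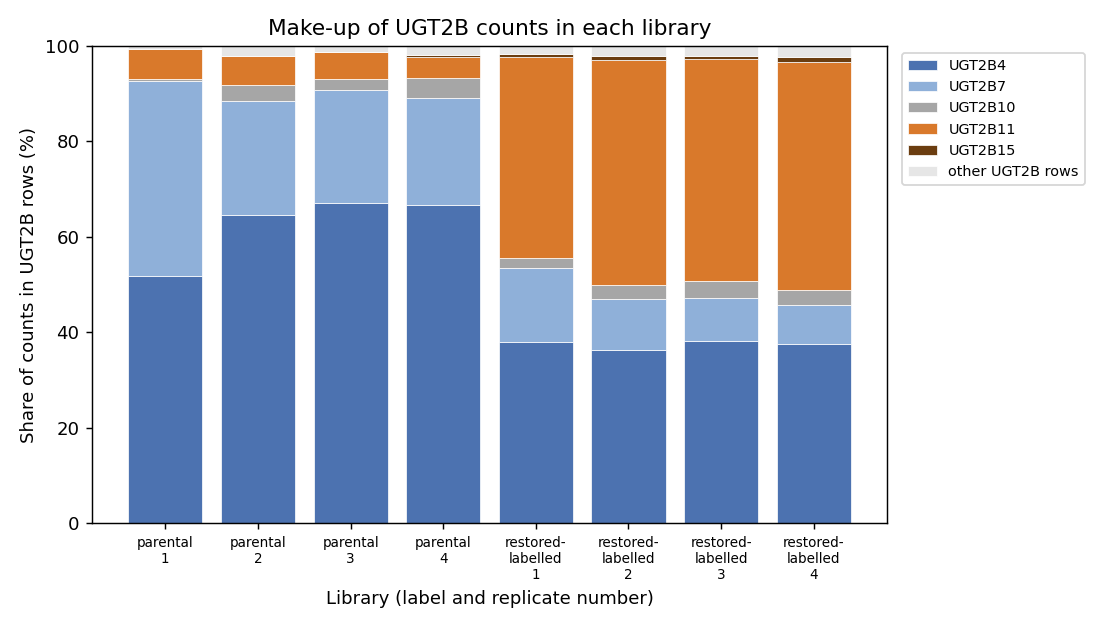
Share of all counts in UGT2B rows (percent) held by each gene in the 8 libraries, by label and replicate number. The UGT2B11 segment is between 4.46% and 6.24% in the parental and between 42.2% and 47.8% in the restored-labelled libraries.

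Of the sulfotransferases, SULT1A1 rose past the threshold. SULT1A1 conjugates simple phenols and thyroid hormones and is the main phenol sulfotransferase of adult liver (ENSG00000196502, minus strand of chromosome 16, 28605196 to 28623625). Its level was 8.54, 1.69, 2.94 and 2.29 CPM in the parental and 10.7, 17.3, 15.3 and 12.6 CPM in the restored-labelled libraries. Parental replicate 1 was high, close to the lowest restored-labelled library, and the groups did not overlap. SULT1A1 rose from a mean of 3.87 ± 3.16 CPM to 14.0 ± 2.94 CPM (SD, n = 4 each), with a log2 fold change of 1.87 (± 0.43 SE, adjusted p = 0.0137 by edgeR), and of 2.60 without parental replicate 1 (adjusted p = 5.19e-05). SULT1A2, a near copy with which SULT1A1 shares 5.07% of its 50-base stretches, had at most 16 counts in any library, and SULT1A3 at most 6. SULT1A1 held between 75.8% and 100% of the SULT1A counts in the parental and between 93.6% and 95.9% in the restored-labelled libraries.

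SULT1E1, the estrogen sulfotransferase, lies beside the UGT2B cluster on chromosome 4 (ENSG00000109193, 69841212 to 69860152). The library values were 0, 0.812, 0.980 and 0.644 CPM in the parental and 2.08, 2.23, 2.12 and 1.56 CPM in the restored-labelled libraries. The values did not overlap, and no parental library held more than 12 counts. On the log2 scale the difference was 1.68 (SE 0.54, interval 0.49 to 2.86 at 95% confidence) and missed the threshold by little (adjusted p = 0.0506 by edgeR). Without parental replicate 1, the library at 0, it was 1.29 with an adjusted p of 0.0145, and the adjusted p ranged from 0.0082 to 0.116 over the alternatives. A gene of the same strand, AC108941.2, covers 24.1% of its exonic bases and stood at no more than 0.0826 CPM in any library. SULT2A1, which sulfonates DHEA and bile acids and is abundant in adult liver and adrenal, was close to undetected (ENSG00000105398, chromosome 19, 47870466 to 47886397). It had 0, 1, 1 and 4 counts in the parental and 1, 4, 2 and 5 counts in the restored-labelled libraries. The pooled ratio was 1.19 with a counting interval of 0.414 to 3.87, so a difference was not detectable at this depth.

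**Figure D3:**
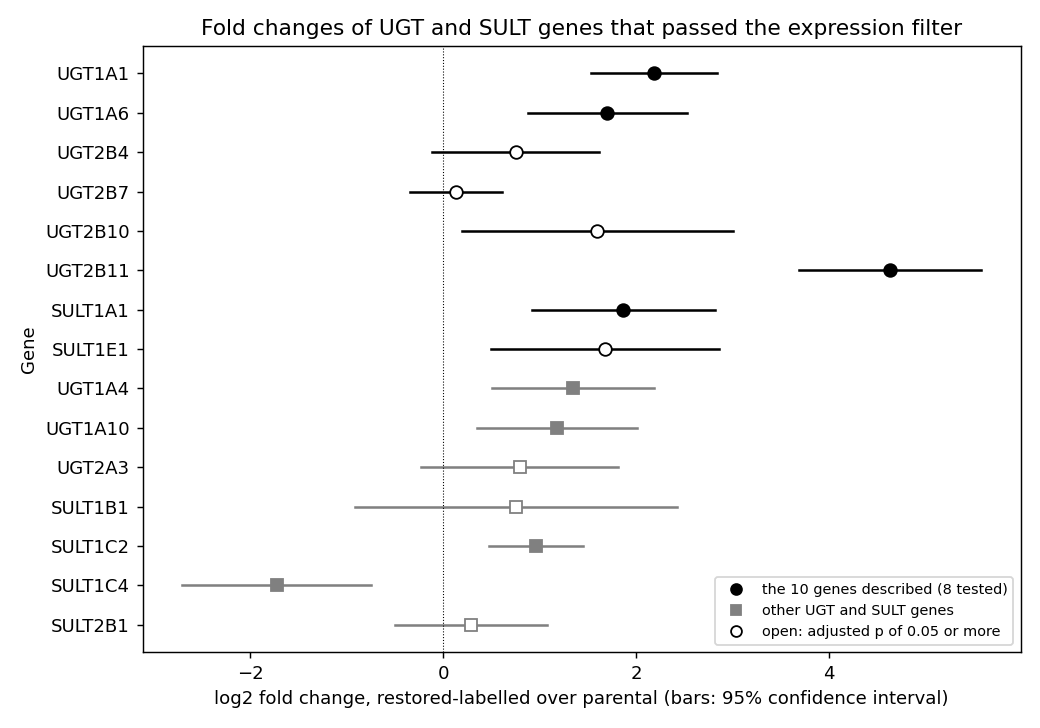
Log2 fold change, restored-labelled over parental, with its 95% confidence interval for the 8 tested members (circles) and 7 other tested UGT and SULT genes (squares), filled where the adjusted p was under 0.05. UGT2B11 stands at 4.63 and SULT1C4, in the opposite direction, at -1.72.

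Levels can be compared between genes only per length, so CPM was divided by the kilobases of annotated exon. All annotated exons of a gene were counted, 8909 bases for SULT1A1 and 1931 to 5180 for the other members. The low place of SULT1A1 below rests on that length, and how much of it the transcripts of these cells hold was not tested. In the parental libraries the order of mean level was UGT2B4 (19.2 CPM per kb), UGT2B7 (8.51) and UGT1A1 (7.23), followed by UGT2B11 (1.74) and UGT2B10 (1.15). The ranges of UGT2B4 (7.96 to 23.9), UGT2B7 (6.97 to 9.05) and UGT1A1 (5.12 to 10.8) overlapped with each other. That of UGT2B10 (0.0922 to 1.93) overlapped with that of UGT2B11 and with those of all lower members. SULT1A1 (0.434), SULT1E1 (0.291) and UGT1A6 (0.185) came next with overlapping ranges, and SULT2A1 and UGT2B15 were under 0.06. In the restored-labelled libraries UGT2B11 came first at 43.3 CPM per kb (14.5 to 59.9), then UGT1A1 at 33.0 (20.3 to 47.6) and UGT2B4 at 32.4 (12.2 to 43.9), and these 3 overlapped. UGT2B7 followed at 9.38 (5.49 to 10.9) and UGT2B10 at 3.54 (0.892 to 5.01). SULT1A1, SULT1E1, UGT2B15 and UGT1A6 lay between 0.594 and 1.57 on average, and SULT2A1 was last at 0.0830. The places of UGT1A1 and UGT1A6 depend on the length used. Per kilobase of exon shared with no other gene, UGT1A1 stood at 14.4 in the parental libraries, above UGT2B7 at 8.51. In the restored-labelled libraries it stood at 65.7 on that measure, above UGT2B11 at 52.7. UGT1A6 stood at 0.519 and 1.67, against 0.458 and 1.66 for SULT1A1 and 0.384 and 1.26 for SULT1E1. Counts were not restricted to such exons.

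Neighbouring genes were examined because 6 of the 10 members lie within 1 stretch of chromosome 4. Genes whose names start with UGT or SULT were left out of all these counts. Among the 13 remaining tested genes within 2 Mb of that stretch, 1 was called higher and 2 lower, with a median log2 fold change of -0.03. Those left out included UGT2A3, SULT1B1 and UGT2B27P on chromosome 4, with log2 fold changes of 0.79, 0.76 and 1.58. On chromosome 2 they included UGT1A4 and UGT1A10, both called higher. Around UGT1A on chromosome 2, 1 of 17 was higher and 4 were lower (median -0.20). Around SULT1A1 on chromosome 16, 1 of 72 was higher and 5 were lower (median -0.10). Around SULT2A1 on chromosome 19, 12 of 109 were higher and 2 were lower (median 0.23). Single neighbours lay far from these medians, with values from -4.64 to 6.48 on chromosome 4 and from -1.49 to 3.83 on chromosome 2.

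The genes whose log2 CPM followed each tested member most closely over the 8 libraries were named by the smallest root mean square difference after centring. They were CDK5R2 (0.20) and CCDC71L (0.22) for UGT1A1, NLRC5 (0.22) and DAB2 (0.27) for UGT1A6, and COL4A5 (0.33) and SLC44A5 (0.35) for UGT2B11. CDK5R2 and CCDC71L held at most 7 and 9 counts in any parental library, where the prior count weighs on log2 CPM. COL4A5 and SLC44A5 had 0 counts in every parental library, where log2 CPM is set by the prior count, so their likeness to UGT2B11 says little about the size of the difference. For UGT2B4 they were RNU1-70P (0.18) and KLHL13 (0.21), and for UGT2B7 FBLIM1 (0.088) and TRMT5 (0.12). UGT2B10 was followed by UGT2B27P (0.46), a pseudogene with which it shares 14.8% of its 50-base stretches, and by ADH1A (0.49). SULT1A1 was followed by ANXA1 (0.26) and ROBO3 (0.27), and SULT1E1 by F13B (0.43) and FAM43A (0.46).

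Among 15 other UGT genes, 3 were tested, and 2 rose (UGT1A4 and UGT1A10, above) and none fell. UGT2A3 stood at a mean of 16.1 and 27.8 CPM (log2 fold change 0.79, adjusted p = 0.257 by edgeR). Among 10 other sulfotransferase genes, 4 were tested, with 1 higher and 1 lower. SULT1C2 rose from 16.3 to 31.7 CPM, by 0.96 on the log2 scale (± 0.22 SE, adjusted p = 0.0135 by edgeR). SULT1C4, its neighbour on chromosome 2, fell from 36.4, 37.4, 47.2 and 37.5 CPM to 27.5, 5.12, 8.28 and 6.56 CPM. Restored replicate 1 was again nearest to the other label. The log2 fold change of SULT1C4 was -1.72 (± 0.45 SE, adjusted p = 0.0222 by edgeR), and -2.56 without restored replicate 1. That call was lost without parental replicate 2 or restored replicate 3 or 4 (adjusted p from 0.0504 to 0.0709).

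Of 7 tested genes listed around UDP-glucuronate (PGM1, PGM2, UGP2, UGDH, UXS1, SLC35D1 and SLC35D2), none was called. Not all of them serve its supply. All 7 log2 fold changes were negative, and their median log2 fold change was -0.13. PGM1 came closest, at -0.55 (adjusted p = 0.0562 by edgeR), and 2 of the 7 (PGM1 and SLC35D2) had an unadjusted p under 0.05. SLC35D2, a nucleotide sugar transporter gene, stood between 133 and 162 CPM in the parental and between 114 and 128 CPM in the restored-labelled libraries, without overlap. Of the PAPS list, 3 of 8 genes of PAPS supply and removal of its product PAP rose and none fell, with a median of 0.03. The sulfate transporter gene SLC26A2 rose from 4.63, 4.60, 7.57 and 5.80 CPM to 11.6, 14.9, 16.1 and 26.7 CPM, which is a log2 fold change of 1.62 (± 0.28 SE, adjusted p = 0.00304 by edgeR). PAPSS2, which encodes a PAPS synthase, rose by 0.97 (± 0.25 SE, adjusted p = 0.0224 by edgeR), and BPNT2, which encodes a Golgi phosphatase of PAP, by 0.50 (± 0.15 SE, adjusted p = 0.0394 by edgeR). The call of PAPSS2 was lost without parental replicate 2 or restored replicate 4, and that of BPNT2 without parental replicate 1, 2 or 4 or restored replicate 2, 3 or 4 (adjusted p from 0.0531 to 0.122). SLC26A1, another sulfate transporter gene, stood at a mean of 48.2 CPM in the parental and 30.3 CPM in the restored-labelled libraries (log2 fold change -0.67, adjusted p = 0.0542 by edgeR). PAPSS1 did not differ beyond its error (0.04, SE 0.15, adjusted p = 0.869 by edgeR).

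In a list of sulfatase genes and GUSB, drawn up as conjugate hydrolases, 3 of 5 tested genes rose. Among those that rose, only STS is described here as acting on steroid sulfates. STS, the steroid sulfatase that hydrolyses DHEA sulfate and estrone sulfate, rose from 3.03, 5.28, 3.92 and 3.51 CPM to 25.5, 18.0, 21.8 and 27.1 CPM. The lowest restored-labelled value was above every parental one, and the log2 fold change was 2.55 (± 0.22 SE, adjusted p = 4.48e-05 by edgeR). ARSD, a sulfatase gene of the same family, had 3, 0, 0 and 0 counts in the parental libraries and between 5.08 and 7.35 CPM under the restored label. That is at least 24.5-fold higher against a floor of 3 counts per library. ARSD passed the filter through the restored-labelled libraries alone, so its place among the genes that rose is a description only. The lysosomal sulfatase gene ARSB rose by 0.88 (± 0.21 SE, adjusted p = 0.0174 by edgeR), and the call was lost without restored replicate 4 (adjusted p = 0.0606). GUSB, which encodes beta-glucuronidase, had a log2 fold change of -0.09 (± 0.13 SE, adjusted p = 0.687 by edgeR).

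Transporters of conjugates moved in both directions, with 1 of 9 tested genes higher and 4 lower. ABCC2, the canalicular exporter of bilirubin glucuronides, fell from 954, 941, 949 and 988 CPM to 654, 598, 582 and 627 CPM, which is a log2 fold change of -0.64 (± 0.12 SE, adjusted p = 0.00408 by edgeR). ABCG2, an exporter of sulfate conjugates, fell from a mean of 116 to 47.7 CPM, by 1.28 on the log2 scale (± 0.19 SE, adjusted p = 0.00139 by edgeR). SLCO1B1, an uptake transporter of the hepatocyte, fell by 2.22 on the log2 scale from a mean of 2.38 to 0.537 CPM (± 0.45 SE, adjusted p = 0.00775 by edgeR). It was under the filter's level in most restored-labelled libraries and passed through the parental ones, so its call is a description only. SLC51B, a subunit of a basolateral bile acid and steroid transporter, fell by 0.54 with overlapping groups (adjusted p = 0.0279 by edgeR), and the call was lost without parental replicate 2 or 3 or restored replicate 3 or 4 (adjusted p from 0.0533 to 0.0934). SLCO2B1, an uptake transporter of sulfated steroids, rose from 46.9 to 95.6 CPM, by 1.03 (± 0.18 SE, adjusted p = 0.00352 by edgeR).

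Of 20 transcription factor genes known to act on UGT or SULT genes, 17 were tested, 3 rose and none fell, with a median log2 fold change of 0.05. NR1H4, the bile acid receptor FXR, rose from 2.05, 1.96, 1.51 and 1.00 CPM to 6.74, 20.6, 20.1 and 23.6 CPM, which is a log2 fold change of 3.44 (± 0.40 SE, adjusted p = 0.000354 by edgeR). NR1I2, the xenobiotic receptor PXR, had 1 or 2 counts in each parental library and between 0.887 and 1.90 CPM under the restored label. That is at least 5.33-fold higher against 3 counts per library. VDR, the vitamin D receptor, rose from a mean of 0.413 to 1.78 CPM (log2 fold change 2.07, SE 0.50, adjusted p = 0.0172 by edgeR), and the call was lost without parental replicate 2 or restored replicate 4 (adjusted p of 0.0605 and 0.0570). NR1I2 in all and VDR in most parental libraries were under the filter's level. Both passed through the restored-labelled libraries, so their calls are a description only. HNF4A and AHR did not pass the threshold (log2 fold changes of 0.09 and 0.25, edgeR adjusted p of 0.772 and 0.231). ESR1 had 0 counts in every library.

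Hepatocyte genes moved in both directions. All 16 were tested, 4 rose and 5 fell, with a median log2 fold change of -0.59. FGB and FGG, which encode fibrinogen chains, rose by 2.05 and 1.60 on the log2 scale (edgeR adjusted p of 6.39e-05 and 0.000234), and AHSG, the plasma protein fetuin-A, fell by 3.22 (adjusted p = 0.000201 by edgeR).

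**Figure D4:**
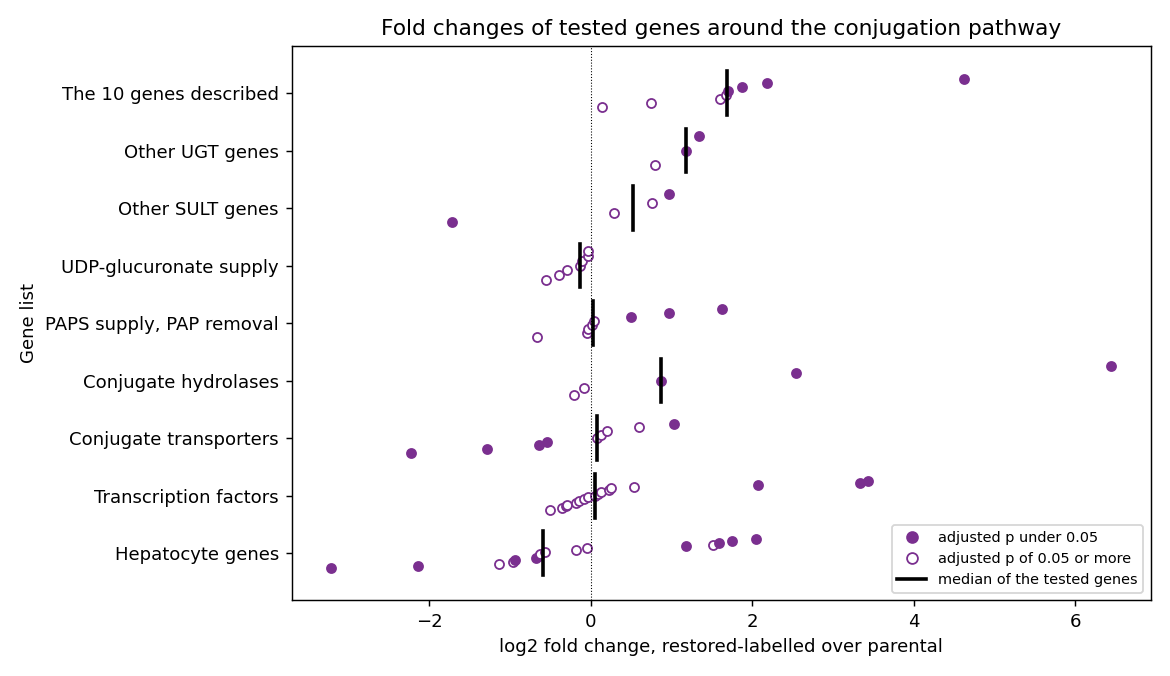
Log2 fold change, restored-labelled over parental, of each tested gene in 9 lists (points, filled where the adjusted p was under 0.05) and the median of each list (black bars). None of the 7 genes in the row labelled UDP-glucuronate supply is filled, while 3 in the row labelled conjugate hydrolases are. Row labels name the lists and not what each gene does. ARSD and NR1I2 are drawn at fitted values, and setting them to their bounds leaves the medians at 0.88 and 0.05.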

How the data were processed

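RNA sequencing libraries of 4 parental and 4 restored-labelled samples were grouped by their titles. The authors deposited raw counts per Ensembl gene, 1 column per sample, with 0 columns of no sample. Per the submitters' processing notes, bcl2fastq, fastp 0.23.1 and STAR 2.7.4 were used with GRCh38. The counting program, annotation and use of strand are not given in the sources used here.

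Differences were tested in edgeR 4.0.16 under R 4.3.3 (filterByExpr with minimum count 10 and minimum total 15, TMM scaling, quasi-likelihood test without covariates, two-sided, Benjamini-Hochberg adjustment over 14289 genes, threshold 0.05). Log2 CPM used a prior count of 2. The fit was tested on simulated data. Same-label libraries differed by more than counting noise (chi-square per degree of freedom 9.09 to 91.3), and each counted as 1 replicate. Floors and pooled ratios cover counting error only.

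Symbols came from a gene name table and GENCODE release 29 on GRCh38, in which 57943 of 58206 identifiers were found; promoters came from RefSeq (GRCh38.p14). Protein sequences were not used here. Named genes are the 10 members, AXIN1, the genes most like a member, and from each list up to 3 called genes with the smallest p plus genes sharing reads with a member; any other gene named, ALB included, were chosen after their values were seen. Members and lists were chosen with earlier results of these data known. Alternatives were other scalings (DESeq2 1.42.0 size factors, upper quartile, total counts), filters, tests (DESeq2, limma-voom 3.58.1), a replicate block, a threshold of 0.01, thinning to 11232951 counts and leaving out libraries. A planned motif and 1 gene of the transcription factor list are not reported here by name.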

Additional observations from a re-analysis of the deposited data

Results flagged for a closer look

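In each group of 4 libraries, a value was singled out when its gap to the nearest other library exceeded Dixon's critical value as a share of the group's range, which chance alone does in about 1 in 20 groups. This was met in 6 of 28 groups examined (the 10 members, 3 locus sums and the UGT2B11 share, by label). Parental replicate 1 accounted for 4 of them: UGT2B4 at 19.9 CPM against 55.1 to 60.0 CPM in the other parental libraries, UGT2B7 at 15.8 CPM against 20.3 to 20.4 CPM, the UGT2B sum at 38.5 CPM against 85.4 to 90.0 CPM, and, in the opposite direction, the SULT1A sum at 8.99 CPM against 2.23 to 2.94 CPM. UGT2B7 in restored replicate 1 stood at 12.4 CPM against 23.7 to 24.6 CPM in the other restored-labelled libraries. UGT2B15 in parental replicate 4 stood at 0.286 CPM while the other parental libraries had 0 counts. Some of these groups hold the same genes and are not independent. The cause of these deviations was not tested.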

How the results depend on the processing

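Under every alternative, all members with a value kept a positive log2 fold change, and UGT1A1 and UGT2B11 were called in each. The number of members called was 4 with DESeq2 size factors, with a mean of at least 1 CPM and after thinning, and 5 (SULT1E1 added) with upper-quartile scaling, total counts only, DESeq2 and limma-voom. It was 8 of 10 without an expression filter, where UGT2B4, UGT2B10, UGT2B15 and SULT1E1 were added, and 2 at an adjusted p under 0.01, where UGT1A6 and SULT1A1 dropped out. With 1 library left out it ranged from 4 to 7, the 7 without restored replicate 1, and with replicate 1 of both labels left out it was 8. Without any 1 parental library or restored replicate 1, 9 members were tested in place of 8, and UGT2B15 was called each time. It was the only call added without parental replicate 2, 3 or 4. Apart from this entry of UGT2B15 and the stricter threshold, under which fewer genes pass by construction, the cause of these changes was not tested. Over all genes, 2738 were called, 964 at an adjusted p under 0.01, between 1394 and 3523 with 1 library left out, and 4623 without replicate 1 of both labels. With total counts only, 1724 genes were higher and 868 lower, against 1485 and 1253.

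Over all tested genes, same-numbered libraries had correlated deviations over 0.1 only for replicate 4 (correlations of -0.06, 0.007, -0.03 and 0.23 for replicates 1 to 4, and not every library matched its own number best), so the numbers were not taken to pair the samples, although replicate 1 was low for ALB and UGT2B4 under both labels. With the replicate number as a block, 6 members and 2033 genes were called, UGT2B4 and UGT2B10 being added at adjusted p of 0.011 and 0.0129. Depth limits SULT2A1 and UGT2B15, which held at most 5 and 66 counts per library.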
